A study of Mus musculus with 34 samples.

Results

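The 33 genes described here are markers of the layers of the cerebral cortex, chosen as a list of names by their known roles, with earlier results of these data known. They were followed in the cortex of mice aged 15 weeks by array, with 1 log2 level per probe set, a set of short probes for one transcript. Of the 33 genes, 31 were measured, each by its brightest probe set over all 34 arrays, out of 18193 genes named on the array. Bhlhe22 had no probe set of its own name, and the 3 probe sets of Etv1 were shared with a second gene, so these 2 genes have no value.

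The arrays came from 4 genotypes of mice of both sexes, all on the CBA X C57Bl/6 background. WT mice (n = 8) carried neither mutation. HDAC4het mice (n = 8) had 1 targeted copy of Hdac4, a histone deacetylase gene, in every cell. R6/2 mice (n = 9), a model of Huntington's disease, carried exon 1 of the human HTT gene with an expanded CAG repeat as a transgene under the human HTT promoter, next to their own Htt gene. R6/2::HDAC4het mice (n = 9) carried the transgene and the targeted allele. Whole cortex was used, so a lower level in a sample cannot tell fewer cells of a type from less RNA per cell.

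Neurons of the cortex are stacked in layers by birth order and target. Layers 2-4 hold neurons that wire cortical areas to each other or receive thalamic input, layer 5 sends the axons that leave the cortex for the brainstem, spinal cord and striatum, and layer 6 projects back to the thalamus. Each layer is recognised by transcription factors that fix its identity in development (Cux2 above, Fezf2 and Bcl11b in layer 5, Tbr1 in layer 6) and by effector genes that its mature neurons express. The members were grouped as layers 2-4 (14 genes, 13 measured), layer 5 (8 genes, 7 measured), layer 6 with its deepest sublayer (7 genes, all measured) and excitatory neurons across layers (4 genes, all measured).

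Facts of the whole series bear on what follows. The median log2 level of an array ranged from 5.44 to 5.52, and correlations within a genotype from 0.973 to 0.997. The excitatory neuron genes Camk2a and Slc17a7 averaged 13.27 and 10.21 in WT, while the 8 hippocampal markers averaged between 4.85 and 5.82 on every array. All 3 probe sets of the targeted gene Hdac4 fell between WT and HDAC4het (log2 change -0.48, -0.51 and -0.36, limma adjusted p = 0.0036, 0.00743 and 0.0299), and the second brightest also fell between R6/2 and R6/2::HDAC4het (-0.61, adjusted p = 3.3e-04). The other 2 changed by -0.33 and -0.08 there (adjusted p = 0.691 and 0.945). The dimmest of the 3, with the change of -0.08, was already lower in R6/2 than in WT (-0.39, limma adjusted p = 0.00449). Between R6/2 and WT the brighter 2 were not called (-0.15 and 0.02). The sex label went against the X-inactivation transcript Xist and the Y-linked Eif2s3y on 15 of 34 arrays, so results are also given with sex read from Xist. Prolactin transcript (Prl), a pituitary product, was above a log2 level of 8 on 4 arrays (WT replicates 2, 6 and 7 and HDAC4het replicate 1), and R6/2 replicate 2 carried epidermal transcripts. The number of arrays limits the precision of every comparison.

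The first comparison asked how the transgene altered the layer genes. Between R6/2 and WT, 13 of the 31 members were lower and 4 were higher (limma, Benjamini-Hochberg adjusted p of 0.05 or less over all 45037 probe sets). The shares among all probe sets were 12% lower and 14.9% higher, and among the brightest probe sets of all genes 11.8% lower and 20.2% higher. By layer, 7 of 13 genes of layers 2-4 fell and 0 rose, 2 of 7 in layer 5 fell and 2 rose, 2 of 7 in layer 6 fell and 1 rose, and 2 of the 4 genes across layers fell and 1 rose. The median log2 change was -0.43 in layers 2-4, -0.07 in layer 5, -0.15 in layer 6 and -0.22 across layers, beside 0.01 over all probe sets. Changes over 30% were called for 13 members, 10 lower and 3 higher, a call made on 14% of all probe sets. On 7 members every R6/2 array lay below every WT array, as on 3.03% of all probe sets: Lamp5, Rspo1, Cux2, Rasgrf2, Pcp4, Tbr1 and Nrn1.

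**Figure D1:**
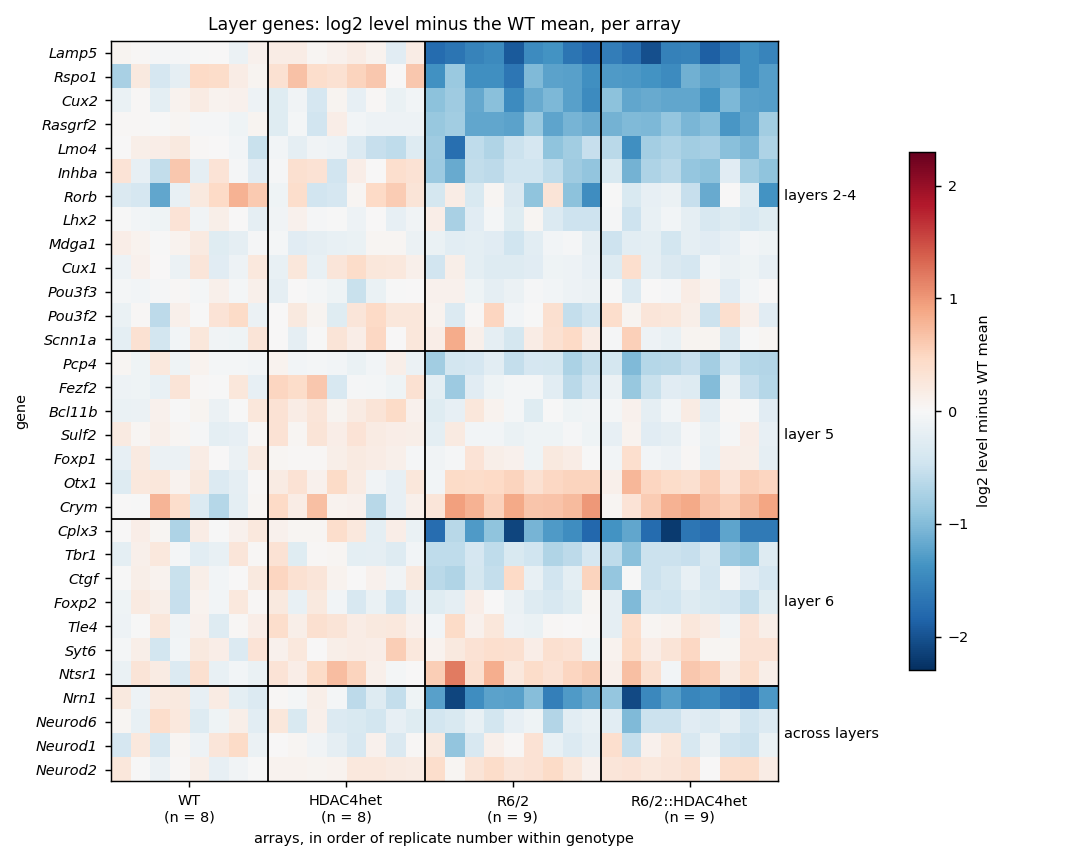
Log2 level of each of the 31 measured layer genes minus its WT mean (colour scale, blue lower and red higher), 1 column per array in order of replicate number within each genotype and 1 row per gene, grouped by layer and sorted by the R6/2 minus WT change. Lamp5, Rspo1, Cux2, Rasgrf2, Cplx3 and Nrn1 were blue on all 18 arrays with the transgene, and Crym, Otx1 and Ntsr1 were mostly red.

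In layers 2-4, Lamp5 fell furthest. It encodes a neuronal relative of the lysosomal LAMP proteins that marks upper-layer excitatory cells and also a class of interneurons. Its level ran from 11.62 to 11.86 in WT (median 11.76), from 11.50 to 11.93 in HDAC4het (median 11.88), from 9.82 to 10.39 in R6/2 (median 10.07) and from 9.73 to 10.35 in R6/2::HDAC4het (median 10.17). The transgenic arrays lay more than 1 log2 unit below all others, and the spread within WT was narrow (SD 0.07). The change between R6/2 and WT was -1.63 ± 0.07 (SE, limma adjusted p = 4.09e-11), which left 32.3% of the WT level.

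Rspo1, a secreted activator of Wnt signalling, ran from 6.75 to 7.94 in WT (median 7.61), from 7.50 to 8.16 in HDAC4het (median 7.95), from 5.83 to 6.63 in R6/2 (median 6.10) and from 6.04 to 6.40 in R6/2::HDAC4het (median 6.20). Its WT arrays were more widely spread than its HDAC4het arrays, and neither group met the transgenic arrays. It fell by 1.30 on the log2 scale between WT and R6/2 (SE 0.15, limma adjusted p = 3.3e-06), to 40.7% of WT.

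A pair of upper-layer regulators with narrow groups fell by about the same amount. Cux2, a cut homeodomain factor that shapes the dendrites and spines of upper-layer neurons, ran from 9.82 to 10.24 in WT (median 10.10), from 9.65 to 10.11 in HDAC4het (median 9.93), from 8.59 to 9.22 in R6/2 (median 8.89) and from 8.68 to 9.11 in R6/2::HDAC4het (median 8.85). Rasgrf2, a calcium-responsive exchange factor for Ras, ran from 10.89 to 11.05 in WT (median 10.99), from 10.55 to 11.14 in HDAC4het (median 10.87), from 9.76 to 10.19 in R6/2 (median 9.85) and from 9.65 to 10.18 in R6/2::HDAC4het (median 9.95). For both, the 16 arrays without the transgene stood above the 18 with it. The change was -1.14 ± 0.09 for Cux2 (SE, limma adjusted p = 3.73e-08) and -1.06 ± 0.07 for Rasgrf2 (adjusted p = 3.34e-09), which left 45.4% and 47.8% of WT. These are changes of the brightest probe sets. Of the 3 probe sets of Cux2 only 1 was called lower, while all 3 of Rasgrf2 were.

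Lmo4, a LIM-only cofactor of transcription complexes, ran from 11.00 to 11.74 in WT (median 11.52), from 10.93 to 11.43 in HDAC4het (median 11.25), from 9.78 to 11.11 in R6/2 (median 10.82) and from 10.09 to 10.88 in R6/2::HDAC4het (median 10.72). The groups met at 1 WT array, replicate 8, which lay below R6/2 replicates 5 and 6, while R6/2 replicate 2 was far below the other R6/2 arrays. Its change was -0.77 ± 0.15 (SE, limma adjusted p = 0.00057). Inhba encodes the subunit of activin A, an activity-regulated growth factor. It ran from 6.87 to 8.07 in WT (median 7.34), from 7.003 to 7.82 in HDAC4het (median 7.69), from 6.28 to 6.99 in R6/2 (median 6.85) and from 6.36 to 7.18 in R6/2::HDAC4het (median 6.64), and WT replicate 3 reached into the R6/2 range. It changed by -0.71 ± 0.14 (adjusted p = 0.000845), to 61.2% of WT.

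The remaining genes of layers 2-4 differed less or varied more widely. Mdga1, a cell adhesion protein of upper layers, was called lower at -0.21 (limma adjusted p = 0.0406), but its probe set was dim, with a mean of 3.95 over all arrays, and the call was lost in 12 of the 17 fits that left out a single array. Rorb, the nuclear receptor of layer 4, read 9.17 ± 0.65 in WT (SD, n = 8) and 8.75 ± 0.57 in R6/2 (SD, n = 9) and was not called at -0.43 (adjusted p = 0.271). Not called either were the cut factor Cux1 (-0.20), the LIM homeodomain factor Lhx2 (-0.27), the POU factors Pou3f2 (-0.05) and Pou3f3 (-0.07), and Scnn1a, a sodium channel subunit used as a layer 4 marker (0.18), with adjusted p from 0.0726 to 0.874.

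**Figure D2:**
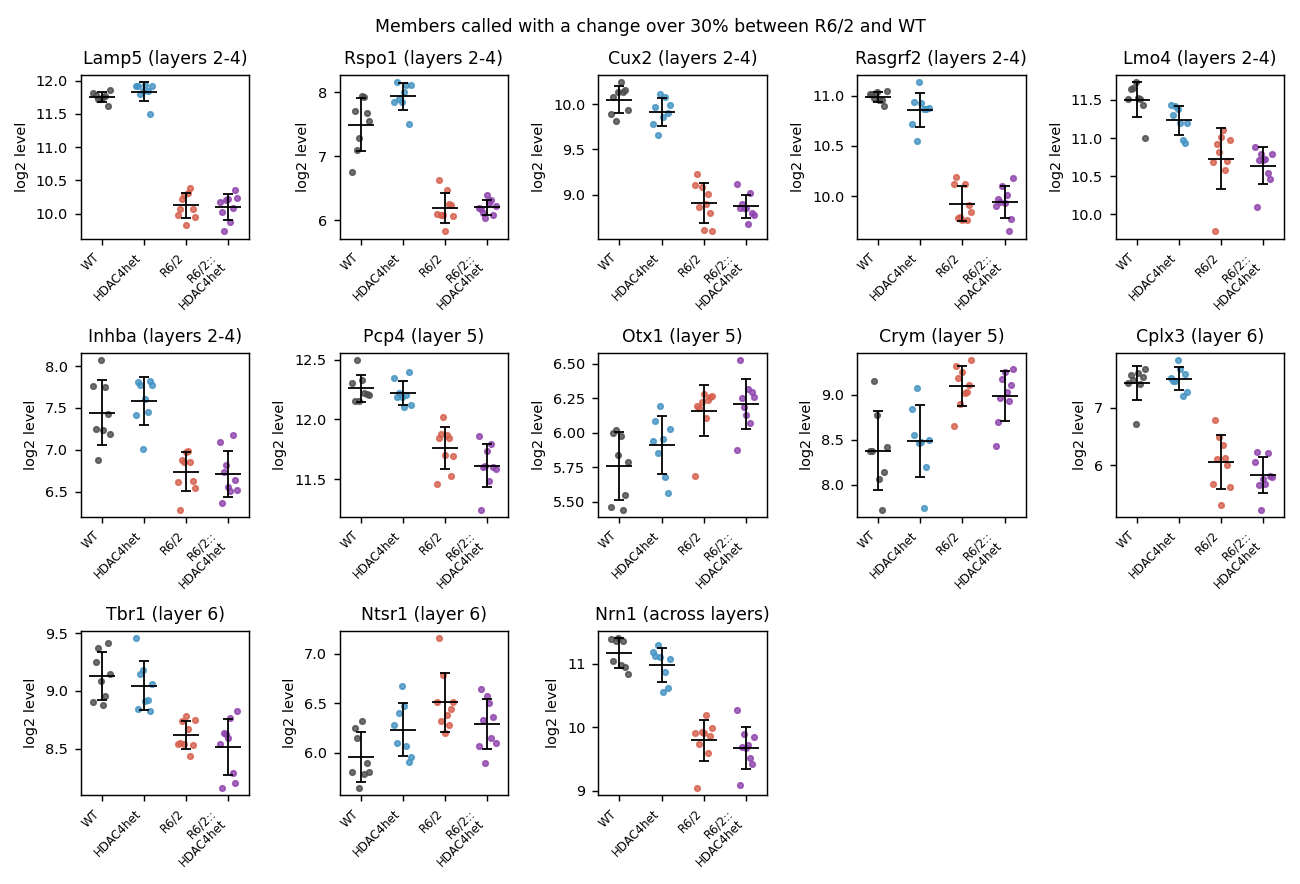
Log2 level of the 13 members called with a change over 30% between R6/2 and WT, in each array (points) of the 4 genotypes (horizontal axis), with mean and SD as bars. The 10 genes that fell did so in both transgenic groups, and limma called none of the 13 between HDAC4het and WT.

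Of the 7 layer 5 genes, 2 fell and 2 rose. Pcp4, which encodes a small calmodulin-binding protein, ran from 12.15 to 12.50 in WT (median 12.21), from 12.11 to 12.39 in HDAC4het (median 12.20), from 11.46 to 12.02 in R6/2 (median 11.84) and from 11.25 to 11.86 in R6/2::HDAC4het (median 11.61). All transgenic arrays lay below the others, and the change was -0.50 ± 0.08 (SE, limma adjusted p = 6.47e-05). Fezf2, the zinc finger factor that specifies subcerebral projection neurons, was called at -0.31 (adjusted p = 0.0383), a call lost in 8 of the 17 fits without a single array.

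Crym and Otx1 moved the other way. Crym encodes mu-crystallin, a thyroid hormone binding protein of deep-layer neurons, and ran from 7.73 to 9.15 in WT (median 8.37), from 7.74 to 9.07 in HDAC4het (median 8.49), from 8.66 to 9.38 in R6/2 (median 9.11) and from 8.43 to 9.28 in R6/2::HDAC4het (median 9.02). WT replicates 3 and 4 lay inside the R6/2 range and the other 6 WT arrays lay below it. The change was 0.72 ± 0.15 (SE, limma adjusted p = 0.00145), or 164% of WT. Otx1, a homeodomain factor of layer 5 and 6 neurons, ran from 5.44 to 6.02 in WT (median 5.81), from 5.56 to 6.20 in HDAC4het (median 5.95), from 5.69 to 6.28 in R6/2 (median 6.22) and from 5.87 to 6.53 in R6/2::HDAC4het (median 6.25). A single R6/2 array, replicate 1, fell among the WT arrays, and the change was 0.40 ± 0.10 (adjusted p = 0.0048). Bcl11b, the zinc finger factor of corticospinal neurons (-0.07), the forkhead factor Foxp1 (0.08) and Sulf2, which trims sulfate from heparan chains (-0.07), were not called (adjusted p = 0.553, 0.498 and 0.501).

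In layer 6, Cplx3 fell most. This complexin clamps and promotes vesicle fusion at the synapse and marks the deepest sublayer. It ran from 6.72 to 7.67 in WT (median 7.50), from 7.21 to 7.83 in HDAC4het (median 7.49), from 5.31 to 6.79 in R6/2 (median 6.12) and from 5.23 to 6.23 in R6/2::HDAC4het (median 5.80). The groups crossed at 1 pair of arrays, R6/2 replicate 2 and WT replicate 4, the second of which lay far below the other WT arrays. The change of -1.37 ± 0.17 (SE, limma adjusted p = 1.06e-05) left 38.6% of WT.

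Tbr1, the T-box factor that specifies corticothalamic neurons, ran from 8.88 to 9.41 in WT (median 9.12), from 8.83 to 9.46 in HDAC4het (median 8.99), from 8.43 to 8.78 in R6/2 (median 8.55) and from 8.16 to 8.83 in R6/2::HDAC4het (median 8.59). R6/2 lay wholly below WT, with a change of -0.51 ± 0.08 (SE, limma adjusted p = 9.49e-05). Ntsr1, the neurotensin receptor of corticothalamic cells, was higher instead and ran from 5.65 to 6.32 in WT (median 5.85), from 5.90 to 6.67 in HDAC4het (median 6.19), from 6.20 to 7.16 in R6/2 (median 6.44) and from 5.90 to 6.64 in R6/2::HDAC4het (median 6.33). Its R6/2 and WT groups met over 3 R6/2 and 2 WT arrays, and the change was 0.55 ± 0.12 (adjusted p = 0.00227). Ctgf, a matricellular protein of the deepest sublayer, was wider in R6/2 (SD 0.44) than in WT (SD 0.22) and was not called at -0.24 (adjusted p = 0.312). Foxp2 (-0.15), the Groucho corepressor Tle4 (0.06) and the synaptotagmin Syt6 (0.24) were not called either (adjusted p = 0.3, 0.69 and 0.0903).

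Among genes of excitatory neurons across layers, Nrn1 fell. Nrn1 encodes neuritin, a membrane-anchored protein induced by activity that promotes the growth of neurites and synapses. It ran from 10.84 to 11.40 in WT (median 11.20), from 10.56 to 11.30 in HDAC4het (median 11.09), from 9.05 to 10.19 in R6/2 (median 9.91) and from 9.09 to 10.27 in R6/2::HDAC4het (median 9.69). The transgenic arrays stood apart, and the change was -1.37 ± 0.13 (SE, limma adjusted p = 3.43e-07), to 38.7% of WT. The helix-loop-helix factors of this group split. Neurod6 was lower at -0.31 (adjusted p = 0.0274), a call lost in 4 of 17 fits without a single array, Neurod2 was higher at 0.29 (adjusted p = 0.00497), and Neurod1 was not called at -0.14 (adjusted p = 0.561).

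Of the 4 members that fell furthest, Lamp5, Cplx3 and Rspo1 have a promoter in the RefSeq table (build GRCm38.p6), and the entry for Nrn1 is missing. The 250 bases before the start of each are shown, as the sequences upstream of the genes with the largest falls. Lamp5 has a second listed start, whose promoter is not printed. The windows were chr2:136052089-136052338 on the plus strand for Lamp5, chr9:57606282-57606531 on the minus strand for Cplx3 and chr4:124986180-124986429 on the plus strand for Rspo1, each printed 5′ to 3′ along the gene. Capitals mark CACGTG, an E-box read by helix-loop-helix factors, which was added to the search after the sequences had been seen.
Lamp5: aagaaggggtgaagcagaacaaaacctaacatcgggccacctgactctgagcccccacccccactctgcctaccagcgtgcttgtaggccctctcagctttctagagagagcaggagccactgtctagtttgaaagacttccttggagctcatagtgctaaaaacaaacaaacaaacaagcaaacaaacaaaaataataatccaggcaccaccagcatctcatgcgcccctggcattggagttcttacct
Cplx3: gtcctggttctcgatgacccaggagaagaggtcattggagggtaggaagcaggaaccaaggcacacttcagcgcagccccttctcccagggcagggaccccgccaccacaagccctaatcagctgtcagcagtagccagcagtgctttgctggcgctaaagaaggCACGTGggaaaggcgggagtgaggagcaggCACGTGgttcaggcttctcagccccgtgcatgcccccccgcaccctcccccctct
Rspo1: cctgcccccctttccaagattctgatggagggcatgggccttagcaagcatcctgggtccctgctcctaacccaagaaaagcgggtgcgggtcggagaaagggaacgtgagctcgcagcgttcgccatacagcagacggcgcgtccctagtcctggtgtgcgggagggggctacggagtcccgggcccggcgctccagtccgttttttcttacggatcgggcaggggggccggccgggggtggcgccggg

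The Cplx3 window held CACGTG 2 times, at 85 to 80 and 55 to 50 bases before the start, and the windows of Lamp5 and Rspo1 held none. It was in 5 of the members' 37 listed promoters and in 6.02% of all 32851 in the table. Searched on both strands, the cAMP response element TGACGTCA, its half-site TGACG, which lies within it, the E-box CAGATG, which NeuroD factors bind, the TATA box TATAAA and the GC box GGGCGG were in none of the 3 printed windows. Promoters were listed for 25 of the 33 members, 37 in all with alternative starts. The GC box was in 20 of these 37, and in 32.7% of all promoters. CAGATG was in 2 of the 37, those of Cux2 and Neurod2, and in 14.4% of all, TGACG in 5 and 17.8%, TATAAA in 3 and 12.4%, and TGACGTCA in 0 and 1.55%. The 13 members that fell had 16 listed promoters for 12 genes, of which 6 held the GC box. A match of letters is not a bound site.

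The transgene was compared a second time on the other background, R6/2::HDAC4het against HDAC4het, with 17 arrays that the first comparison did not use. Here 18 of 31 members were lower and 2 were higher, against 9.98% and 13.2% of all probe sets. By layer, 9 of 13 genes of layers 2-4, 4 of 7 in layer 5, 4 of 7 in layer 6 and 1 of 4 across layers fell, and the 2 that rose were Crym and Otx1. The median log2 change was -0.55 in layers 2-4, -0.29 in layer 5, -0.33 in layer 6 and -0.14 across layers, beside 0.01 over all probe sets. On 8 members (Lamp5, Rspo1, Cux2, Rasgrf2, Lmo4, Pcp4, Cplx3 and Nrn1) every R6/2::HDAC4het array lay below every HDAC4het array, as on 3.01% of all probe sets. Markers of other cells fell in this comparison too, with 7 of 8 inhibitory neuron genes (median -0.60), 7 of 8 microglial genes (-0.37), 5 of 8 astrocyte genes (-0.30) and 4 of 6 striatal genes (-0.48), among them Penk (-1.59) and Gpr6 (-1.52). The striatal mean level ran from 7.22 to 8.34 in HDAC4het and from 6.57 to 7.09 in R6/2::HDAC4het. Of the other lists, 2 of 7 oligodendrocyte, 3 of 8 thalamic and 1 of 7 endothelial genes fell. Among hippocampal, pituitary, epidermal and choroid plexus genes 0 fell. Rises were called for 1 endothelial, 1 of 8 hippocampal and 3 of 8 epidermal genes. The part of all these markers in the falls of the members was not tested.

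The upper-layer genes also fell on this background. Lamp5 changed by -1.74 ± 0.08 (SE, limma adjusted p = 3.32e-11), Rspo1 by -1.73 ± 0.08 (adjusted p = 2.64e-11), Cux2 by -1.05 ± 0.07 (adjusted p = 3.31e-09) and Rasgrf2 by -0.92 ± 0.08 (adjusted p = 8.61e-08). Inhba (-0.87) and Lmo4 (-0.59) fell with them. Of the deep-layer genes, Cplx3 changed by -1.67 ± 0.12 (adjusted p = 6.26e-09), Pcp4 by -0.61, Fezf2 by -0.66 and Tbr1 by -0.53. Nrn1, expressed across layers, changed by -1.30.

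In 7 members the fall passed the test on this background and not between R6/2 and WT. They were Cux1 (-0.30), Rorb (-0.55) and Lhx2 (-0.21) in layers 2-4, Bcl11b (-0.29) and Sulf2 (-0.29) in layer 5, and Ctgf (-0.52) and Foxp2 (-0.33) in layer 6. Dimmer probe sets of Cux1, Rorb, Sulf2 and Foxp2 were called lower between R6/2 and WT. For none of the 7 was the interaction of transgene and Hdac4 allele, given below, called. A call in 1 comparison alone does not show that the backgrounds differ. Ntsr1, higher in R6/2 than in WT, changed by 0.06 here (adjusted p = 0.799), and Neurod2 (0.12), Neurod6 (-0.23) and Mdga1 (-0.13) were not called. The calls of Rorb, Cux1, Foxp2 and Lhx2 were lost in 11, 12, 6 and 1 of the 17 fits without a single array. Between the 2 comparisons 13 members were called in the same direction, 11 lower and 2 higher, and 27 of 31 changed with the same sign. The same counts were not made over all probe sets, so they do not set the members apart from the rest of the array.

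**Figure D3:**
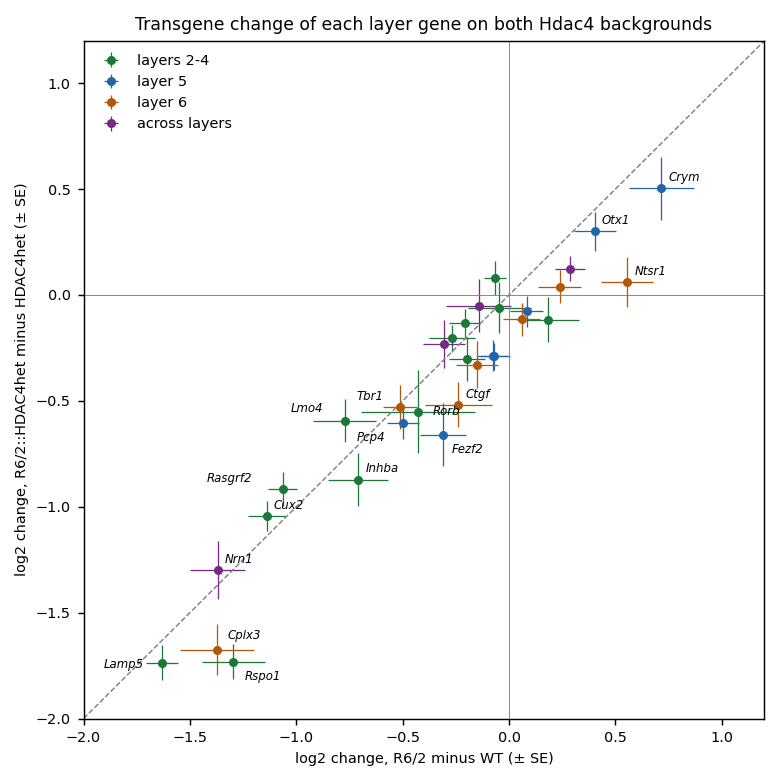
Log2 change of each of the 31 members between R6/2 and WT (horizontal axis) and between R6/2::HDAC4het and HDAC4het (vertical axis), with SE bars, coloured by layer. The dashed line marks equal change, and 27 of 31 members have the same sign on both axes. The share over all probe sets was not counted.

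Whether the targeted Hdac4 allele altered the transgene's effect was tested as an interaction over all 4 genotypes. It was called for 0 of 31 members by limma, and for 0.00222% of all probe sets, and 4 members (12.9%) had an unadjusted p of 0.05 or less, beside 9.87% of all probe sets. Those were Ntsr1 (-0.49, adjusted p = 0.337), Rspo1 (-0.44, adjusted p = 0.397), Sulf2 (-0.22) and Bcl11b (-0.21). The median interaction was -0.02 in layers 2-4, -0.21 in layer 5, -0.20 in layer 6 and 0.07 across layers, beside -0.01 over all probe sets. All 7 genes of layer 5 and all 7 of layer 6 lay below 0, as did 23742 of all 45037 probe sets. In the second list of layer genes the medians were -0.05 in layer 5 and -0.04 in layer 6, with 8 of 14 and 11 of 14 below 0. For the genes that fell furthest, the 95% interval of the interaction was -0.33 to 0.12 for Lamp5, -0.79 to -0.08 for Rspo1, -0.14 to 0.33 for Cux2, -0.07 to 0.36 for Rasgrf2, -0.75 to 0.15 for Cplx3 and -0.32 to 0.46 for Nrn1.

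On the R6/2 background, the allele itself was compared in R6/2::HDAC4het against R6/2. Of the 31 members 0 were called by limma or by the methods' t-test, beside 0.00666% of all probe sets, and 1 (3.23%) had an unadjusted p of 0.05 or less, beside 5.68% of all probe sets. That was Foxp2, which read 7.33 ± 0.18 in R6/2 (SD, n = 9) and 7.04 ± 0.24 in R6/2::HDAC4het (SD, n = 9), a change of -0.29 ± 0.10 (SE, limma adjusted p = 0.789). The changes of all members lay between -0.29 and 0.14. For the 6 members that fell furthest in R6/2, the 95% interval was -0.21 to 0.16 for Lamp5, -0.17 to 0.19 for Rspo1, -0.21 to 0.14 for Cux2, -0.15 to 0.18 for Rasgrf2, -0.58 to 0.13 for Cplx3 and -0.41 to 0.18 for Nrn1. These intervals lie within 0.58 log2 units of 0, where the changes of the same genes between R6/2 and WT ran from -1.63 to -1.06.

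Without the transgene, HDAC4het against WT, limma called 0 of 31 members and the methods' t-test 0, beside 1.67% of all probe sets higher and 2.23% lower. These shares of all probe sets moved with single arrays. Of 1760 calls in all, 5 were left without the 4 arrays high in Prl and 22 with the sex that Xist gave, and with 1 array left out the count was lowest at 183, when HDAC4het replicate 6 was dropped, and highest at 3994, when WT replicate 8 was. An unadjusted p of 0.05 or less was found for 7 members (22.6%), near the 21.4% of all probe sets. Among these 7, values above WT stood for Rspo1 (0.44 ± 0.15, SE, limma adjusted p = 0.0926), Tle4 (0.24, adjusted p = 0.0635), Bcl11b (0.23, adjusted p = 0.0619), Sulf2 (0.20), Ntsr1 (0.28) and Neurod2 (0.15), and a lower value for Lmo4 (-0.27, adjusted p = 0.116). Bcl11b was called under 3 of the other settings, Tle4 under 2 and Rspo1 under 1. The median change was 0.15 in layer 5 and 0.18 in layer 6, where 6 of 7 and 5 of 7 genes lay above WT, beside 0.08 in layers 2-4, -0.14 across layers and 0.00 over all probe sets. In a second list of layer genes, described further on, the medians were 0.01 in layer 5 and -0.02 in layer 6, with 6 of 14 and 9 of 14 genes below WT.

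Layer by layer, each array was summarised by the median of its genes' differences from the WT mean. In layers 2-4 this median lay between -0.10 and 0.09 in WT and between -0.07 and 0.11 in HDAC4het. It lay between -0.80 and -0.30 in R6/2 and between -0.77 and -0.22 in R6/2::HDAC4het, so the arrays with and without the transgene did not meet. In layer 5 the ranges overlapped, with -0.13 to 0.12 in WT, -0.05 to 0.32 in HDAC4het, -0.22 to 0.25 in R6/2 and -0.21 to 0.14 in R6/2::HDAC4het. In layer 6 they ran from -0.31 to 0.14, from -0.05 to 0.32, from -0.38 to 0.11 and from -0.43 to -0.01 in the same order. Across layers they ran from -0.19 to 0.14, from -0.36 to 0.09, from -0.63 to 0.11 and from -0.78 to 0.02. Over all members they ran from -0.05 to 0.07, from -0.02 to 0.10, from -0.31 to -0.17 and from -0.35 to -0.21. The separation was not particular to layers 2-4. The mean level of the 8 inhibitory neuron genes ran from 9.53 to 9.64, from 9.46 to 9.71, from 8.91 to 9.12 and from 8.86 to 9.11. Such a separation was not counted over all probe sets.

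**Figure D4:**
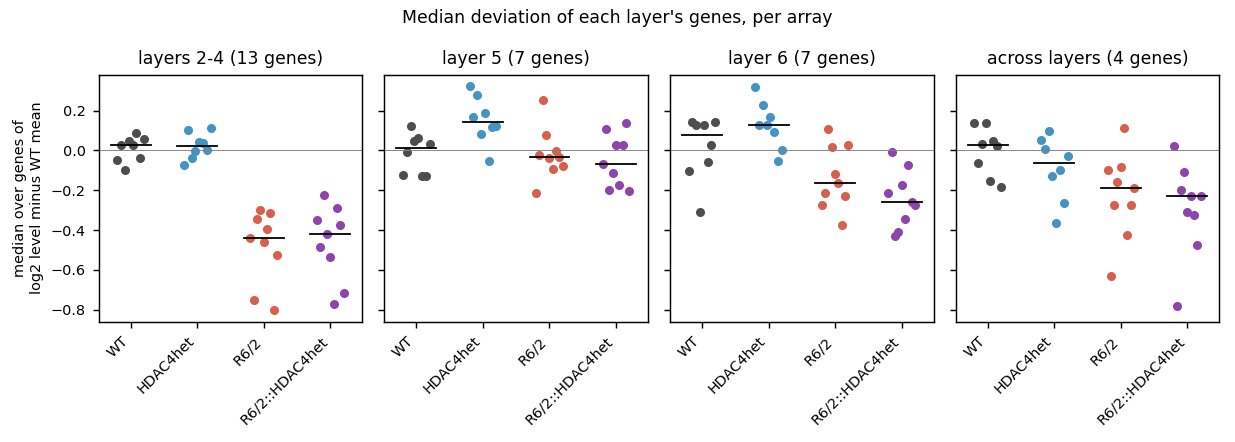
Median over the genes of each layer group of the log2 level minus the WT mean (vertical axis), 1 point per array for each of the 4 genotypes, with a line at the median of each genotype. In layers 2-4 all 18 arrays with the transgene lay at -0.22 or below and all others at -0.10 or above. In the other layer groups shown the ranges overlapped. Mean levels of the inhibitory neuron genes, not drawn, also did not meet between arrays with and without the transgene.

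Genes with several probe sets showed how far the choice of the brightest mattered. The 31 members had 74 probe sets, and 15 members had more than 1. Between R6/2 and WT no member had probe sets called in opposite directions, but 6 had an uncalled brightest probe set and a dimmer one that was called lower. For Rorb the dimmer 2 fell by 0.79 and 1.17 on the log2 scale (limma adjusted p = 3.52e-06 and 7.52e-05), beside -0.43 for the brightest. Of the 9 of Cux1, 4 fell, by 0.29 to 0.86, and for Tle4 the brightest read 0.06 and the others -0.36 and -0.81. Sulf2, Foxp2 and Pou3f3 were the other 3 of these 6 genes. For Cux2 the reverse held. Its brightest probe set fell by 1.14, while the dimmer 2, with WT means of 8.29 and 7.51, changed by -0.01 and -0.09 (adjusted p = 0.983 and 0.379). The same was seen for Inhba, whose dimmer probe set, with a WT mean of 4.03, changed by -0.00 (adjusted p = 0.98). Rasgrf2 fell on its 3 probe sets (-1.06, -0.94 and -0.57), and Neurod2 rose on 2 of 3 (0.29, 0.35 and -0.06). Where in each transcript these probe sets lie was not examined.

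**Figure D5:**
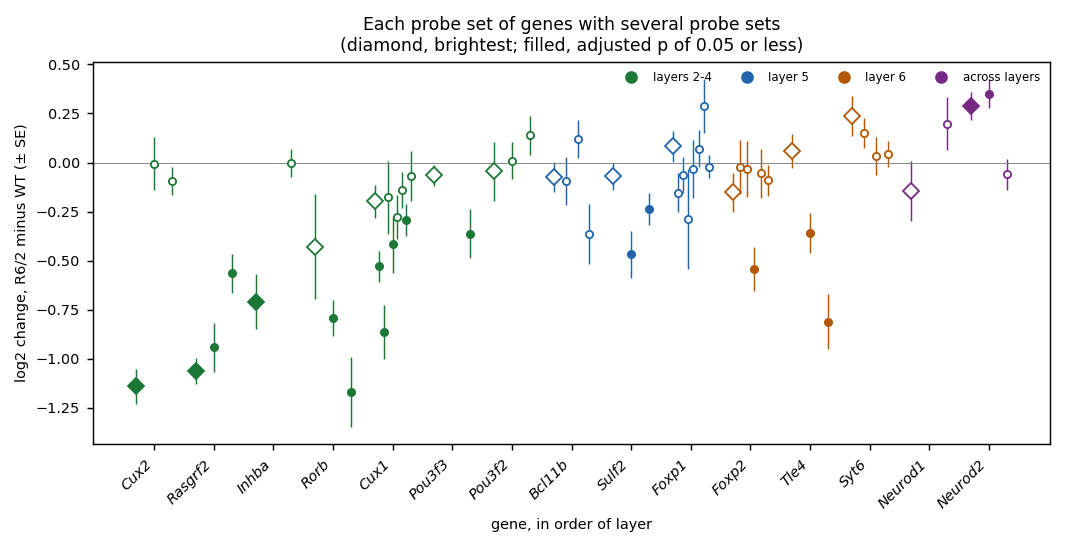
Log2 change between R6/2 and WT with its SE (vertical axis) for each probe set of the 15 members with several, in order of layer along the horizontal axis. Diamonds mark the brightest probe set of a gene and filled symbols an adjusted p of 0.05 or less. The called changes of each gene lie on 1 side of 0.

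A second list of 50 layer genes, none of them members, was counted beside the first, and 49 were measured. This list too was chosen with earlier results of these data known. Between R6/2 and WT 22 fell and 1 rose (limma, same threshold), beside 12% lower and 14.9% higher among all probe sets. Of these, 9 of 13 genes of layers 2-4 fell, led by Stard8 (-1.48 ± 0.11, SE), Wfs1, a protein of the endoplasmic reticulum (-1.36 ± 0.11), and the adhesion protein Nectin3 (-0.99 ± 0.17). In layer 5, 6 of 14 fell, led by the peptide receptor gene Qrfpr (-1.37), the steroid enzyme Hsd11b1 (-0.84) and the retinol carrier Rbp4 (-0.69), and S100a10, a partner of annexin, rose (0.58). In layer 6, 2 of 14 fell, the heparan sulfatase Sulf1 (-0.70) and Moxd1 (-0.33). Across layers 5 of 8 fell, led by the kinase gene Camk2a (-0.42), the vesicular glutamate transporter Slc17a7 (-0.40) and the transcription factor Mef2c (-0.32). The median changes were -0.72, -0.20, -0.09 and -0.27 in this order of layers.

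Markers of other cells moved between R6/2 and WT as well. Of 8 inhibitory neuron genes 6 fell (median -0.52), and their mean level ran from 9.53 to 9.64 in WT and from 8.91 to 9.12 in R6/2. Of 8 microglial genes 5 fell (median -0.55, mean level 7.63 to 8.28 in WT and 7.11 to 7.77 in R6/2), and of 8 astrocyte genes 5 fell and 1 rose (-0.35, 9.92 to 10.2 and 9.61 to 9.91). Of 7 oligodendrocyte genes 1 fell (-0.24, 9.89 to 10.9 and 10.3 to 10.6), and of 7 endothelial genes 2 rose (0.04, 6.88 to 7.25 and 7.09 to 7.32). Among tissues that border the cortex, 1 of 6 striatal, 3 of 8 thalamic and 1 of 8 hippocampal genes fell, and 1 hippocampal and 3 of 7 choroid plexus genes rose. The striatal mean level ran from 7.14 to 8.07 in WT and from 6.64 to 7.96 in R6/2, and the thalamic one from 6.78 to 7.13 and from 6.70 to 6.95. Of 8 pituitary genes 3 fell (mean level at most 6.95 in WT and 4.28 in R6/2), and of 8 epidermal genes 1 rose (4.75 to 4.94 and 4.90 to 6.54). Their part in the changes of the layer genes was not tested.

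The counts were repeated without the arrays in doubt. Without the 3 WT arrays high in Prl, 11 members fell and 3 rose between R6/2 and WT, and Fezf2, Neurod2 and Neurod6 lost their calls. Without R6/2 replicate 2, 12 fell and 4 rose. With the sex that Xist gave in the fit, 12 fell and 4 rose. Within each sex so read (5 R6/2 and 3 WT males, 4 R6/2 and 5 WT females), the 17 called members had the same sign in both. Lamp5 changed by -1.62 in males and -1.68 in females, Cux2 by -0.97 and -1.34, and Crym by 0.73 and 0.76. The opposite signs were those of Pou3f2, Tle4 and Ctgf, none of them called. The 17 members had been called on these same arrays with both sexes pooled, so a shared sign was likely beforehand. It therefore cannot show whether sex had a part in the changes. The share of same signs over all probe sets was not counted. All 13 members called with a change over 30% kept their calls without each single array and under every other setting tried.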

How the data were processed

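Cortex RNA was hybridised by the authors to Affymetrix mouse genome arrays, 1 per sample, and arrays of poor quality were excluded. They deposited 1 log2 value for each probe set and array. How background, normalization and summary were done is not given in the sources used here. Each of 34 columns bore the name of 1 sample, and 0 columns had none.

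Of 45037 probe sets, 34945 had 1 gene symbol, 932 several and 9160 none. Symbols were updated through a RefSeq table (GRCm38.p6), which matched 34741. Probe sets of several genes were not named. The brightest probe set over all arrays stood for each gene, and Ctgf was found under Ccn2.

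Pairs of genotypes were fitted with limma 3.58.1 in R 4.3.3 (lmFit, eBayes) on the arrays of the pair alone, with no covariate and no filter on dim probe sets. The interaction used all 4 genotypes. P-values were adjusted by Benjamini-Hochberg over the whole table. A call needs an adjusted p of at most 0.05, with a second count of changes over 30% (1.3-fold). Intervals are 95%. P-values weigh a difference between genotypes against the spread of arrays within genotypes, which eBayes moderates over all probe sets. The fits were checked on simulated data. Members called with a change over 30% between R6/2 and WT are given in full, others by group. Of the other layer genes, up to 3 per layer are named, and S100a10 as the single rise. Promoters were those of the 4 largest falls.

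The members, lists and layer groups were chosen with earlier results of these data known. Alternatives were quantile normalization, brighter probe sets only, array weights, trend and robust eBayes, sex from labels or Xist, the replicate number as a block, the mean of a gene's probe sets, the methods' t-test, a joint fit of the 4 genotypes, and leaving out arrays. Figures were drawn with matplotlib 3.10.9.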

Additional observations from a re-analysis of the deposited data

Results flagged for a closer look

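In 14 of 124 combinations of a member and a genotype, 1 array lay far from the others by Dixon's gap criterion. Chance meets this criterion in about 1 of 20 independent groups. The members were read on the same arrays, so the combinations are not independent and the 2 shares cannot be compared as a test. WT replicate 4 was lowest in 3 layer 6 genes, with log2 levels of 6.72 for Cplx3, 8.33 for Ctgf and 6.95 for Foxp2, where the other WT arrays began at 7.42, 8.79 and 7.38. R6/2::HDAC4het replicate 2 stood apart in 4 genes, lowest at 6.47 for Foxp2 and 8.44 for Neurod6, and highest at 8.95 for Cux1 and 6.62 for Scnn1a. R6/2 replicate 2, the array with epidermal transcripts, was lowest for Lmo4 at 9.78 and highest for Sulf2 at 10.96, and its median correlation with the other R6/2 arrays was 0.977.

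The other 5 were spread over 4 arrays. HDAC4het replicate 7 was lowest for Lamp5 at 11.50 and highest for Syt6 at 5.76. HDAC4het replicate 5 was lowest for Pou3f3 at 9.33, R6/2 replicate 1 was lowest for Otx1 at 5.69, and WT replicate 8 was lowest for Lmo4 at 11.00.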

How the results depend on the processing

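Between R6/2 and WT the count of called members lay between 14 and 22 over the settings tried (17 as reported) and between 15 and 18 with each of 17 arrays left out in turn. Of the 17, 13 kept their calls throughout, and Fezf2, Mdga1, Neurod6 and Neurod2 lost theirs under 5, 2, 1 and 1 of the other settings. The brighter probe sets leave Mdga1 out. One direction was reversed. When a gene's probe sets were averaged, Tle4 was called lower at -0.37 in place of 0.06 for its brightest probe set, since its dimmer probe sets then enter. For R6/2::HDAC4het against HDAC4het the count lay between 16 and 21 (20 as reported), and between 17 and 20 without single arrays. Crym, Cux1, Foxp2, Lhx2 and Rorb lost their calls under 1, 2, 3, 2 and 6 settings. The other layer genes gave 22 to 25 calls without single arrays.

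For HDAC4het against WT, 0 members were called as reported. Quantile normalization gave 1 (Tle4), the brighter probe sets 2 (Bcl11b and Tle4), array weights 1 (Bcl11b), eBayes with trend and robust options 1 (Bcl11b), and sex from the labels 1 (Rspo1). Without single arrays the count ran from 0 to 3, with 14 of 16 fits at 0, and Lmo4, Bcl11b and Tle4 called without WT replicate 8. The cause was not tested. R6/2::HDAC4het against R6/2 and the interaction gave 0 in every setting.

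Replicate numbers are shared between genotypes. The deviations of arrays of the same number correlated between -0.35 and 0.45. Correlations over 0.1 were found in 4 of 8 pairs for R6/2 against WT, 3 of 8 for HDAC4het against WT, 6 of 9 for R6/2::HDAC4het against R6/2 and 3 of 8 for R6/2::HDAC4het against HDAC4het, and 0, 2, 3 and 1 of these arrays correlated best with their own number. Since no comparison had every pair over 0.1, the numbers were not taken to pair the arrays. True pairs could fail this rule, so it cannot exclude a pairing. With the replicate number as a block, 16 members were called between R6/2 and WT, 16 between R6/2::HDAC4het and HDAC4het, 0 in the other comparisons, and 23 of the other layer genes. Dim probe sets such as that of Mdga1 lie near background, which limits what they can show.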
